A study of Mus musculus with 6 samples.

Results

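The genes described here are 8 genes of bile formation by duct cells, and they were measured by RNA sequencing in cultured mouse liver progenitor-like cells (LPCs). The 8 were chosen by symbol from a list of duct secretion channels and apical membrane proteins, and all 8 were present among the 20573 gene symbols shared by the 6 count tables. They comprise the secretin receptor Sctr, the chloride channels Cftr and Ano1, the chloride/bicarbonate exchanger Slc4a2, the water channel Aqp1, and the apical proteins Ggt1, Muc1 and Anxa13. LPCs are dividing cells derived in culture from adult liver. Each of 3 groups had 2 libraries. Bec_LPCs were grown from pieces of the intrahepatic bile ducts of WT mice, which were plated in matrigel, passaged and sorted as single cells, and the series describes them as Epcam+. Hep_LPCs came from hepatocytes of ROSA26tdTomato mice given AAV8-TBG-Cre, a virus in which a hepatocyte promoter drives Cre. NPC_LPCs came from the non-parenchymal liver cells of AlbCreERT/R26GFP mice, in which the albumin promoter drives an inducible Cre. All mice were C57BL/6 aged 6 to 8 weeks, and TEM, a Transition and Expansion Medium, was used for all cells. Cell source, mouse line, Cre system and sort differ together between the groups and cannot be told apart.

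Bile is first made by hepatocytes and is then diluted and made alkaline by cholangiocytes, the epithelial cells that line the bile ducts. Secretin binds its receptor on the basolateral side and raises cAMP, which opens the chloride channel CFTR in the apical membrane. The chloride that leaves is exchanged for bicarbonate by the exchanger AE2, the product of Slc4a2, and water follows through aquaporins. ATP in bile gives a second route, in which purinergic receptors raise calcium and open the calcium-activated chloride channel encoded by Ano1.

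Total counts per library were 17575998 to 22985844. Levels are CPM (reads of a gene relative to the reads of its library), on library sizes scaled by TMM, a trimmed mean method that corrects for differences in RNA composition, and group means are given ± SD (n = 2). Fold changes are on the log2 scale, ± SE. Calls are genes with a Benjamini-Hochberg adjusted p under 0.05 over all genes tested, from the quasi-likelihood test of edgeR. Nothing in the labels ties the replicates to different cultures or mice, and the p-values therefore reflect the spread between these samples alone, which may be technical. An exact permutation test of 2 against 2 libraries cannot give a two-sided p below 0.333. Between the replicates of a group the chi-square per degree of freedom over genes was 5.64 in Bec_LPCs, 91.3 in Hep_LPCs and 109.7 in NPC_LPCs. Hep_LPCs replicate 2 stood apart in Ddx3y, a Y-linked RNA helicase gene, with 1 read (0.0593 CPM) against 60.4 CPM in replicate 1. The Bec_LPCs tables also hold 13 mitochondrially encoded genes that the other tables lack, so any difference in counting cannot be told apart from a difference of the Bec_LPCs group.

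The labels were checked against bile duct markers. Krt19, a duct keratin, was at 472 and 441 CPM in Bec_LPCs, 1511 and 932 CPM in Hep_LPCs, and 117 and 282 CPM in NPC_LPCs. Krt7, another duct keratin, was at 298 and 365 CPM in Bec_LPCs, 109 and 174 CPM in Hep_LPCs, and 1.501 and 17.7 CPM in NPC_LPCs. Sox9, a duct transcription factor, was at 151 and 145 CPM in Bec_LPCs, 115 and 122 CPM in Hep_LPCs, and 269 and 83.7 CPM in NPC_LPCs. Epcam was at 59.0 and 65.7 CPM in Bec_LPCs, 0.351 and 1.84 CPM in Hep_LPCs, and 0.115 and 0.610 CPM in NPC_LPCs. The 5 hepatocyte markers, which include Alb, summed to 1.59 to 2.83 CPM in Bec_LPCs, 2.73 to 9.25 CPM in Hep_LPCs and 0.203 to 0.346 CPM in NPC_LPCs. The 5 leukocyte markers summed to 23.1 to 26.2 CPM in Bec_LPCs, 16.1 to 26.5 CPM in Hep_LPCs and 22.0 to 86.5 CPM in NPC_LPCs. Both keratins and Sox9 were read in all 6 libraries, with Krt7 lowest in NPC_LPCs, while Epcam was low outside Bec_LPCs, and Cyp2e1, a hepatocyte marker, was at 0 reads in all groups.

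Of the 8 genes, 3 carried nearly all of the reads. Ano1, Slc4a2 and Anxa13 together had 30804 and 29967 reads in Bec_LPCs, 6878 and 8170 reads in Hep_LPCs, and 11996 and 15670 reads in NPC_LPCs. The other 5 genes together had 109 and 122 reads in Bec_LPCs, 39 and 94 in Hep_LPCs, and 37 and 81 in NPC_LPCs. Ano1 alone took 82.6% and 81.9% of the reads of the 8 genes in Bec_LPCs, 60.6% and 56.6% in Hep_LPCs, and 55.2% and 64.1% in NPC_LPCs. Exact binomial 95% intervals of these shares ran from 81.4% to 83.0% in Bec_LPCs, from 55.5% to 61.7% in Hep_LPCs and from 54.3% to 64.9% in NPC_LPCs over both libraries, and they cover counting error only.

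**Figure D1:**
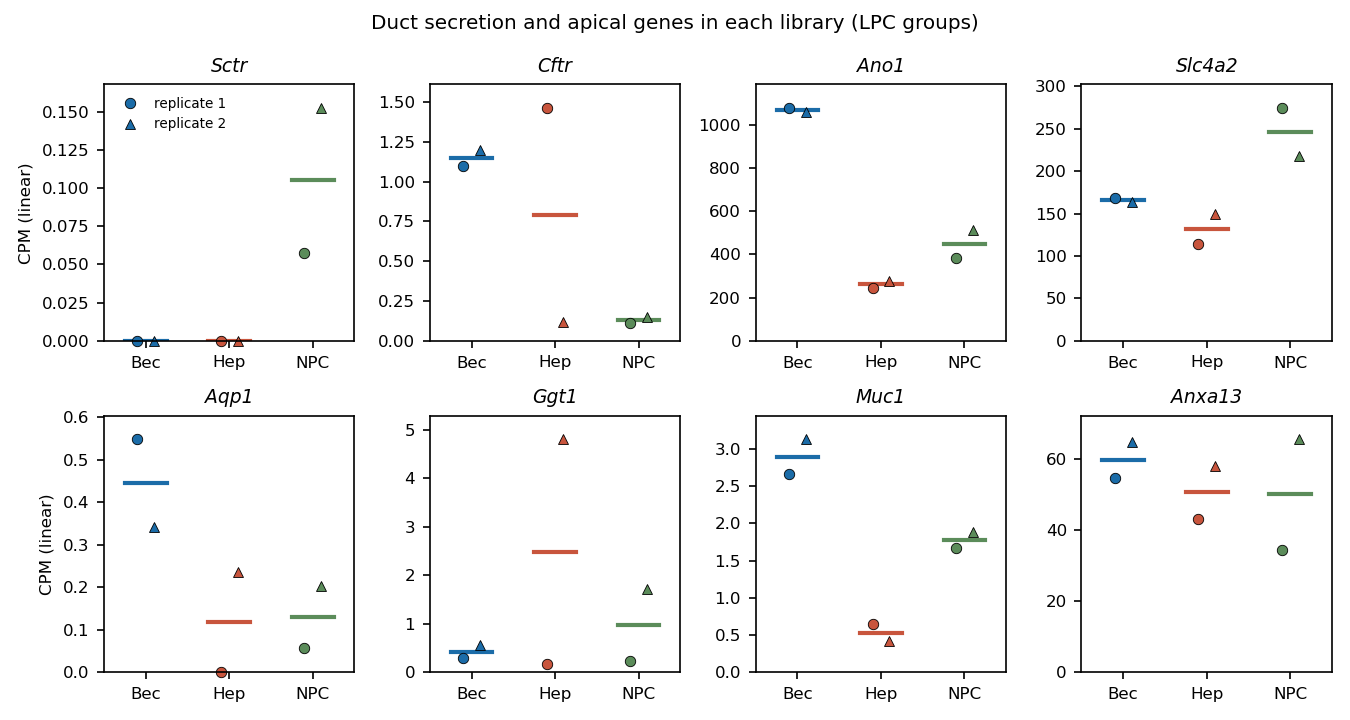
CPM of the 8 genes in each library, on a linear axis that starts at 0 and has its own range in each panel, with a bar at the mean of the 2 libraries of a group. Ano1 lies at 1077 and 1056 CPM in the Bec_LPCs libraries and at or below 513 CPM in the others, and Sctr, Cftr, Aqp1, Ggt1 and Muc1 stay below 5 CPM in every library.

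Set per kilobase of exon, which allows levels of different genes to be compared, Ano1 was the highest of the 8 in every library. It was at 173 and 169 CPM per kilobase in Bec_LPCs, 39.3 and 44.4 in Hep_LPCs, and 61.4 and 82.2 in NPC_LPCs. Anxa13 ranked second in 5 libraries, at 40.7 and 48.1 CPM per kilobase in Bec_LPCs, 32.1 and 43.1 in Hep_LPCs, and 48.6 in NPC_LPCs replicate 2. In NPC_LPCs replicate 1, Slc4a2 was second at 33.0 CPM per kilobase, above Anxa13 at 25.6. In every library a wide gap separated these 3 genes from the other 5, of which the highest was Ggt1 in Hep_LPCs replicate 2 at 1.41 CPM per kilobase. On the authors' deposited FPKM (fragments scaled to exon length and library depth), which exist for the Hep_LPCs and NPC_LPCs tables, Ano1 was again first, at 25.3 and 31.4 in Hep_LPCs and 41.3 and 55.9 in NPC_LPCs. On FPKM, Slc4a2 stood above Anxa13 in both NPC_LPCs libraries, at 33.9 and 27.5 FPKM against 13.2 and 24.3. In Hep_LPCs it stood below Anxa13, at 13.5 and 19.6 FPKM against 15.0 and 22.2. The order of the second and the third gene therefore differed between these scales in NPC_LPCs replicate 2 only.

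**Figure D2:**
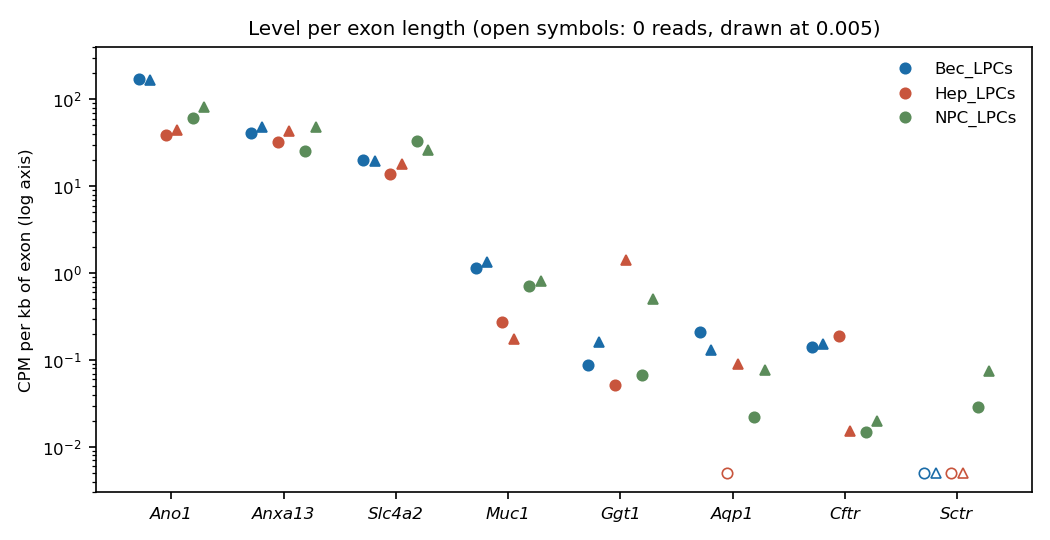
CPM per kilobase of merged exons for the 8 genes on a log axis, with circles for replicate 1, triangles for replicate 2 and open symbols at 0.005 for libraries with 0 reads. Ano1, Anxa13 and Slc4a2 lie between 13.7 and 173 CPM per kilobase, and every value of the other 5 genes lies at or below 1.41.

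Sctr encodes the receptor for secretin, the hormone that starts bicarbonate secretion in duct cells (chromosome 1, 120006894 to 120063536 in mm10, forward strand, protein-coding). It had 0 reads in both Bec_LPCs libraries and in both Hep_LPCs libraries, and 1 and 3 reads in the NPC_LPCs libraries. At these depths 3 reads, the limit that a count of 0 allows, correspond to 0.127 and 0.129 CPM in Bec_LPCs, 0.176 and 0.178 CPM in Hep_LPCs, and 0.173 and 0.152 CPM in NPC_LPCs. All counts were at or under 3 reads. The 3 reads of NPC_LPCs replicate 2 had an exact binomial 95% interval of 0.0314 to 0.446 CPM, which reaches above that limit. No fold change is given, and Sctr was below the count filter in every comparison. The receptor transcript was not detectable at this depth in the duct-derived or hepatocyte-derived cells.

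The apical chloride channels differed by orders of magnitude from each other. Cftr, the cAMP-gated channel (chromosome 6, 18170687 to 18322768, forward strand), was near the detection limit in most libraries, while Ano1, the calcium-activated channel (chromosome 7, 144588549 to 144751974, reverse strand), was abundant in all of them. Ano1 had 982 and 879.6 reads for each Cftr read in Bec_LPCs, 168 and 2338 in Hep_LPCs, and 3322.5 and 3366 in NPC_LPCs. The Hep_LPCs and NPC_LPCs ratios with high values rest on 2 or 3 Cftr reads. The 250 bases before the RefSeq start site of each channel (GRCm38.p6, the assembly of mm10) are shown because these channels of the same membrane differ so widely in level; capitals mark GC boxes, the letters GGGCGG on either strand, to which Sp1-type factors bind. The windows are chr7:144738574-144738823 on the reverse strand for Ano1 and chr6:18170437-18170686 on the forward strand for Cftr, both written 5′ to 3′ in the direction of transcription.

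Ano1: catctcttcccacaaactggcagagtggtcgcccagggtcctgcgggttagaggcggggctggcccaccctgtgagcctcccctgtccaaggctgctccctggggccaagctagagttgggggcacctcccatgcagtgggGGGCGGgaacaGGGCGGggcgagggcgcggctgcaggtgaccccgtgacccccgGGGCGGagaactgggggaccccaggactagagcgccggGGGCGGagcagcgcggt

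Cftr: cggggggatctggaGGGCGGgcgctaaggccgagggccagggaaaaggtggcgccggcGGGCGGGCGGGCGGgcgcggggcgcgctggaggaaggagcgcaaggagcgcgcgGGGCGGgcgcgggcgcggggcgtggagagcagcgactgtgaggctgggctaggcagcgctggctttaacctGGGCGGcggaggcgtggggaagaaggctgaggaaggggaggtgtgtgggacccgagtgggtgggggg

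The Ano1 window held 4 GC boxes and the Cftr window 6, counting overlapping matches, and 72% and 76.4% of their bases were G or C, against a median of 52.4% over all RefSeq windows of this length. A GC box was found in 32.7% of the 32851 such windows. Neither window held the TATA box letters TATAAA, the cAMP response element TGACGTCA or its core TGACG on either strand, which were found in 12.4%, 1.55% and 17.8% of all windows. These matches describe letters only. The RefSeq start of Ano1 lies inside the longer GENCODE gene, so the window is that of 1 annotated start.

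Ano1 was higher in Bec_LPCs than in either other group. It was at 1077 and 1056 CPM in Bec_LPCs, 245 and 277 CPM in Hep_LPCs, and 384 and 513 CPM in NPC_LPCs. The groups did not overlap, and the order was Bec_LPCs, then NPC_LPCs, then Hep_LPCs. Against NPC_LPCs the log2 fold change was 1.25 ± 0.20 (adjusted p = 0.0220), from 1066.5 ± 15.2 CPM in Bec_LPCs and 448 ± 91.6 CPM in NPC_LPCs. With Bec_LPCs replicate 1 or 2 left out the estimate was 1.21 or 1.27 and the call was lost. Such a fit holds 1 Bec_LPCs library, and calls fell over all genes there, not for Ano1 alone. Against Hep_LPCs the log2 fold change was 2.03 ± 0.21 (adjusted p = 0.00314), and this call held with each of the 6 libraries left out, with adjusted p from 0.00389 to 0.0302. Both comparisons use the same Bec_LPCs libraries. Between the other groups Ano1 had a log2 fold change of -0.80 ± 0.27 in Hep_LPCs over NPC_LPCs and did not pass (adjusted p = 0.172), so the order of these groups was not resolved beyond their spread.

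Ano1 is also a channel of smooth muscle and pacemaker cells, and 3 of 6 mesenchymal markers were higher in Bec_LPCs too. The 6 mesenchymal markers (Pdgfrb, Pdgfra, Col1a1, Dcn, Acta2 and Lrat) summed to 146 to 177 CPM in Bec_LPCs, 2.97 to 5.44 CPM in Hep_LPCs and 4.79 to 14.8 CPM in NPC_LPCs. Of the 4 that were tested, 3 were called higher in Bec_LPCs in each comparison, namely Acta2, Pdgfrb and Col1a1. Acta2 and Pdgfrb passed the count filter through Bec_LPCs, where they were high, so their calls are a description only. Acta2, smooth muscle actin, was at 77.6 and 94.1 CPM in Bec_LPCs, at 0 reads in both Hep_LPCs libraries, and at 0 and 2.34 CPM in NPC_LPCs. Lrat, a stellate cell marker, was at 0 reads in all libraries. Of the leukocyte markers, Lyz2, lysozyme of myeloid cells, was also high in Bec_LPCs, at 12.2 and 14.4 CPM, against 0.293 and 0.0593 CPM in Hep_LPCs and 0.635 and 0 CPM in NPC_LPCs, and it too passed the filter through Bec_LPCs. Cd68 was instead lowest in Bec_LPCs, at 9.12 and 8.66 CPM, against 22.8 and 14.0 in Hep_LPCs and 83.9 and 20.9 in NPC_LPCs. Csf1r overlapped in both comparisons of Bec_LPCs. Ptprc and Adgre1 were, like Lyz2, highest in Bec_LPCs, but at or below 0.772 CPM in every library. Ano1 was at 245 and 277 CPM in the Hep_LPCs libraries, where Acta2 was at 0 reads. Those values do not show what makes up the higher Ano1 level of Bec_LPCs. The part of mesenchymal or myeloid cells in the Ano1 difference was not tested.

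Cftr had 26 and 28 reads in the Bec_LPCs libraries (1.10 and 1.20 CPM), 25 and 2 reads in the Hep_LPCs libraries (1.46 and 0.119 CPM), and 2 and 3 reads in the NPC_LPCs libraries (0.115 and 0.152 CPM). Both Bec_LPCs libraries and Hep_LPCs replicate 1 were high, and the other 3 libraries were at or under 3 reads. The Hep_LPCs replicates had exact binomial 95% intervals of 0.947 to 2.16 and 0.0144 to 0.429 CPM; these and the intervals of other genes cover counting error only, not the spread between samples. Cftr passed the count filter of the 6-library fit through the libraries in which it was high, and it was below the filter in the fit of Hep_LPCs and NPC_LPCs. Its log2 fold change was 3.03 ± 1.20 in Bec_LPCs over NPC_LPCs (adjusted p = 0.150) and 0.53 ± 1.02 in Bec_LPCs over Hep_LPCs (adjusted p = 0.707), and neither passed. Against NPC_LPCs it passed when the edgeR fit was limited to these 4 libraries (adjusted p = 0.0365). It entered that fit through Bec_LPCs, where it was high, so this pass is a description only. With Hep_LPCs replicate 1 or 2 left out of the fit, the log2 fold change over NPC_LPCs stayed at 3.03. Against Hep_LPCs the sign turned without Hep_LPCs replicate 2, to -0.35, and the value was 3.21 without Hep_LPCs replicate 1. The antisense gene Gm15592 shares 1.66% of the Cftr exon bases.

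Slc4a2, the exchanger that moves bicarbonate out in return for chloride, was not called in any comparison as fitted with edgeR and was well above the detection limit in every library. It was at 168 and 164 CPM in Bec_LPCs, 114 and 149 CPM in Hep_LPCs, and 274 and 218 CPM in NPC_LPCs. The groups did not overlap, with NPC_LPCs the highest and Hep_LPCs the lowest. Slc4a2 lies on chromosome 5 (24423837 to 24440950, forward strand). Its log2 fold change was -0.57 ± 0.21 in Bec_LPCs over NPC_LPCs, 0.33 ± 0.21 in Bec_LPCs over Hep_LPCs and -0.92 ± 0.27 in Hep_LPCs over NPC_LPCs, and none passed (adjusted p = 0.125, 0.246 and 0.137). DESeq2's Wald test called the last of these lower (adjusted p = 0.0304), as did edgeR with all 6 libraries in the fit (adjusted p = 0.0497). Fastk and Gm22333, both on the opposite strand, share 13.7% of the merged exon bases of Slc4a2, and whether counting used strand is not stated, so reads of the overlap cannot be assigned. Fastk was at 43.7 and 43.5 CPM in Bec_LPCs, 38.1 and 70.3 CPM in Hep_LPCs, and 57.6 and 42.2 CPM in NPC_LPCs, overlapping between all groups.

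Aqp1, a water channel of cholangiocytes that endothelial and red blood cells also make (chromosome 6, 55336432 to 55348555, forward strand), had few reads in every library. There were 13 and 8 reads in Bec_LPCs, 0 and 4 in Hep_LPCs, and 1 and 4 in NPC_LPCs, and it was below the count filter in every comparison. In CPM this was 0.549 and 0.343 in Bec_LPCs, 0 and 0.237 in Hep_LPCs, and 0.0577 and 0.203 in NPC_LPCs. The lower Bec_LPCs library had an exact 95% interval of 0.148 to 0.676 CPM, which overlaps those of Hep_LPCs replicate 2 (0.0647 to 0.608) and NPC_LPCs replicate 2 (0.0554 to 0.521). Both Bec_LPCs libraries lay above the other 4, and no test was made. Endothelial markers (Pecam1, Cdh5, Kdr, Tek and Stab2) summed to 2.41 to 2.49 CPM in Bec_LPCs, 6.23 to 7.67 CPM in Hep_LPCs and 2.43 to 3.71 CPM in NPC_LPCs. Kdr made up most of the Hep_LPCs sums, at 7.14 and 5.75 CPM. Pecam1 had 10 and 15 reads in Bec_LPCs, 0 and 1 in Hep_LPCs, and 1 and 0 in NPC_LPCs. Cdh5 had 8 and 10 reads in Bec_LPCs, 4 and 2 in Hep_LPCs, and 3 and 11 in NPC_LPCs. The part of endothelial cells in the Aqp1 reads was not tested. Of the erythroid markers, Hbb-bs and Hba-a1 were at 0 reads in all libraries.

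Among the apical proteins, Muc1 was higher in Bec_LPCs than in Hep_LPCs, Anxa13 gave no call in any comparison, and Ggt1 differed most between replicates. Muc1, a membrane mucin of the apical surface (chromosome 3, 89229057 to 89233381, forward strand), was at 2.66 and 3.13 CPM in Bec_LPCs (63 and 73 reads), 0.644 and 0.415 CPM in Hep_LPCs (11 and 7 reads), and 1.67 and 1.88 CPM in NPC_LPCs (29 and 37 reads). The groups did not overlap and stood in the same order as for Ano1. Over Hep_LPCs the Bec_LPCs log2 fold change was 2.44 ± 0.54 (adjusted p = 0.0212). Without Bec_LPCs replicate 1 or 2 the estimate was 2.55 or 2.32 and the call was lost. Those fits hold 1 Bec_LPCs library, and calls fell over all genes there, not for Muc1 alone. Muc1 did not pass in Bec_LPCs over NPC_LPCs (0.70 ± 0.50, adjusted p = 0.381) or in Hep_LPCs over NPC_LPCs (-1.75 ± 0.76, adjusted p = 0.246). The 4 markers of mesothelial cells, which also carry MUC1, summed to 537 to 574 CPM in Bec_LPCs, 213 to 866 CPM in Hep_LPCs and 238.5 to 644 CPM in NPC_LPCs, which overlap. Msln made up most of each sum, at 565 and 528 CPM in Bec_LPCs, 209 and 826 in Hep_LPCs, and 604 and 237 in NPC_LPCs. Upk3b was at or below 2.85 CPM in every library. Wt1 was at 0.169 and 0.600 CPM in Bec_LPCs and 5.37 and 0.712 CPM in NPC_LPCs. The part of mesothelial cells in the Muc1 values was not tested.

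The Muc1 start region (chr3:89228806-89229055, forward strand, GRCm38.p6) is shown because Muc1 and Ano1 were the called genes; capitals mark GC boxes and the TATA box, on either strand.

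Muc1: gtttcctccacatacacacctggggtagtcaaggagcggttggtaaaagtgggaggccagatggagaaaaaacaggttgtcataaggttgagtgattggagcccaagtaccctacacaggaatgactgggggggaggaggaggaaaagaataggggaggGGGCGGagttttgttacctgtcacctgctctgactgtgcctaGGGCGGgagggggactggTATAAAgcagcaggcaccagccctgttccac

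This window held 2 GC boxes and 1 TATA box, with 54.8% G or C, and held neither the cAMP response element nor its core. RefSeq windows were found for 6 of the 8 genes. The full cAMP response element was found in 1 window among these 6 genes, that of the third of 4 annotated Ggt1 starts.

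Anxa13, an annexin of apical vesicle transport (chromosome 15, 58341471 to 58389244, reverse strand), was at 54.8 and 64.8 CPM in Bec_LPCs, 43.3 and 58.1 CPM in Hep_LPCs, and 34.5 and 65.6 CPM in NPC_LPCs. All 3 groups overlapped. Its log2 fold change was 0.26 ± 0.33 in Bec_LPCs over NPC_LPCs, 0.24 ± 0.34 in Bec_LPCs over Hep_LPCs and -0.0074 ± 0.38 in Hep_LPCs over NPC_LPCs (adjusted p = 0.640, 0.604 and 0.995). GENCODE M21 types Anxa13 as a processed transcript and tags it as touched by an error of the reference genome.

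Ggt1, the enzyme that starts glutathione breakdown on the apical surface (chromosome 10, 75561604 to 75586200, forward strand), had 7 and 13 reads in Bec_LPCs, 3 and 81 in Hep_LPCs, and 4 and 34 in NPC_LPCs. Replicate 2 was high in both Hep_LPCs (4.81 CPM, exact 95% interval 3.82 to 5.97) and NPC_LPCs (1.73 CPM, 1.20 to 2.42), and the other 4 libraries were between 0.176 and 0.557 CPM. All groups overlapped. No comparison passed (adjusted p = 0.633 in Bec_LPCs over NPC_LPCs, 0.246 in Bec_LPCs over Hep_LPCs and 0.651 in Hep_LPCs over NPC_LPCs), and each fold change turned its sign when 1 library was left out. In Hep_LPCs over NPC_LPCs the log2 fold change was 1.30 ± 1.53 with all 4 libraries, -2.47 without Hep_LPCs replicate 2 and 3.39 without NPC_LPCs replicate 2. Between Bec_LPCs and Hep_LPCs it was -2.53 with all libraries and 1.25 without Hep_LPCs replicate 2, and in Bec_LPCs over NPC_LPCs it was -1.20 and, without NPC_LPCs replicate 2, 0.86.

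**Figure D3:**
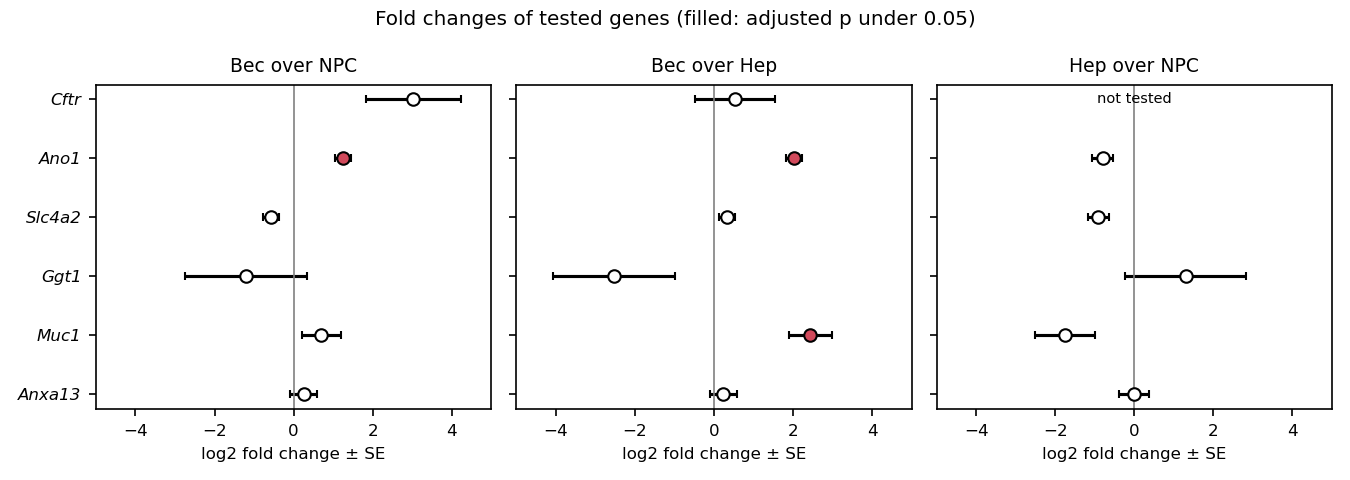
Log2 fold changes ± SE of the 6 genes that passed a count filter, with 1 panel per comparison and filled symbols for an adjusted p under 0.05. Ano1 is filled in both comparisons of Bec_LPCs (1.25 and 2.03) and Muc1 in Bec_LPCs over Hep_LPCs (2.44), while no symbol is filled in Hep_LPCs over NPC_LPCs.

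Counted over the 8 genes, 6 were tested in Bec_LPCs over NPC_LPCs, of which 1 was called higher, Ano1, and 0 lower. Of all 12868 genes tested there, 4.88% were called higher, 6.44% lower and 11.3% in either direction. For Bec_LPCs over Hep_LPCs 6 were tested, of which 2 were called higher, Ano1 and Muc1, and 0 lower. Of all genes, 16.1% were called higher there, 17.2% lower and 33.4% in either direction. None was called lower in either comparison by edgeR, DESeq2 or limma-voom, with 3 and 2 genes at an unadjusted p under 0.05 in either direction. Over all genes, edgeR gave such a p to 4051 and 6084 of 12868 in these comparisons, and to 2733 of 12331 in Hep_LPCs over NPC_LPCs. For Hep_LPCs over NPC_LPCs 5 were tested in the fit of 4 libraries and none was called there by edgeR or limma-voom, against 0.349% called higher, 0.446% lower and 0.795% in either direction of 12331 genes, while 2 (Ano1 and Slc4a2) had an unadjusted p under 0.05 and DESeq2 called 1 lower, as did edgeR with all 6 libraries in the fit (Slc4a2 in both). The median log2 fold change of the genes tested was 0.48 in Bec_LPCs over NPC_LPCs, 0.43 in Bec_LPCs over Hep_LPCs and -0.80 in Hep_LPCs over NPC_LPCs, beside 0.01, 0.03 and -0.003 over all genes. Libraries that do not overlap are common in these data: 37% of tested genes lay wholly higher and 33% wholly lower in Bec_LPCs than in NPC_LPCs, 40.8% and 36.8% in Bec_LPCs than in Hep_LPCs, and 28.9% and 27.7% in Hep_LPCs than in NPC_LPCs.

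**Figure D4:**
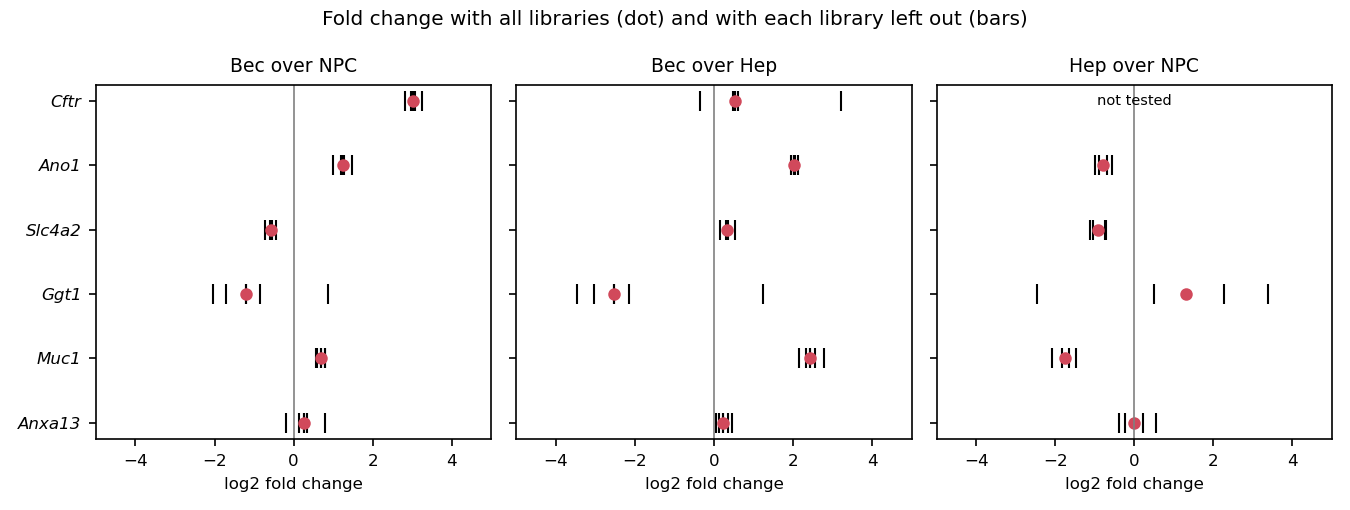
Log2 fold changes with all libraries (dots) and with each library of the fit left out in turn (bars). The bars of Ano1 stay within 1.01 to 1.47 in Bec_LPCs over NPC_LPCs and 1.94 to 2.12 in Bec_LPCs over Hep_LPCs, whereas those of Ggt1 lie on both sides of 0 in every comparison.

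Among themselves the genes had unlike profiles over the 6 libraries. The closest pair was Ano1 and Muc1, whose log2 CPM, centred on each gene's mean, differed by a root mean square of 0.42, and the farthest was Cftr and Ggt1 at 2.48. The genes outside the 8 with the closest profile, out of 9265 with a mean of at least 10 CPM, were Ndfip1 and Socs5 for Ano1 (0.10 and 0.11) and Dag1 and Galk2 for Slc4a2 (0.051 and 0.073). They were Fggy and Glg1 for Muc1 (0.18 and 0.19) and Crim1 and Tomm5 for Anxa13 (0.10 and 0.11). Samd5 and Lratd1 were the closest to Cftr (0.34 and 0.63) and Smoc1 and Adcy1 to Ggt1 (0.75 and 0.90). Samd5 stood, like Cftr, high in both Bec_LPCs libraries and Hep_LPCs replicate 1, with 99.5 and 98.3 CPM in Bec_LPCs, 75.4 and 16.0 CPM in Hep_LPCs, and 19.9 and 13.1 CPM in NPC_LPCs. These distances describe 6 libraries that share groups and scaling and carry no test.

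Other genes of duct secretion were read from a list of 48, of which 32 passed the filter of the 6-library fit. In Bec_LPCs over NPC_LPCs 1 was called higher and 2 lower, beside 4.88% and 6.44% of all genes, and the median log2 fold change was -0.01 against 0.01 over all genes. The list's counts are near these shares. Slc12a2, the basolateral cotransporter that loads duct cells with chloride, rose by 1.99 ± 0.30 (adjusted p = 0.0201), and it was at 369 and 341 CPM in Bec_LPCs, 161 and 88.5 CPM in Hep_LPCs, and 95.4 and 83.2 CPM in NPC_LPCs. Car12, a carbonic anhydrase of the cell surface, changed by -1.42 ± 0.27, and Slc9a3r1, the scaffold NHERF1 that holds CFTR at the apical membrane, by -1.27 ± 0.27 (adjusted p = 0.0325 and 0.0425). Without Bec_LPCs replicate 1 or 2, that group is left with 1 library, and edgeR's calls fell over all genes as well as in this list.

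Against Hep_LPCs, 3 of the 32 were called higher in Bec_LPCs and 7 lower, beside 16.1% and 17.2% of all genes, and the median was -0.43 against 0.03 over all genes. Kcnn4, a calcium-activated potassium channel, was at 54.5 and 49.2 CPM in Bec_LPCs, 0.468 and 1.96 CPM in Hep_LPCs, and 15.3 and 53.8 CPM in NPC_LPCs, and its log2 fold change over Hep_LPCs was 5.41 ± 0.87 (adjusted p = 0.00959). Itpr3, the apical calcium release channel of cholangiocytes, rose by 0.95 ± 0.15 (adjusted p = 0.00934), and Slc12a2, named here after its values were seen, by 1.51 ± 0.30 (adjusted p = 0.0161). The lower genes included Car12, at 7.43 and 7.29 CPM in Bec_LPCs against 74.5 and 72.2 CPM in Hep_LPCs (-3.32 ± 0.29, adjusted p = 0.00231). Abcc3, a basolateral exporter of bile acids and conjugates, changed by -4.18 ± 0.77, Slc9a3r1 by -1.82 ± 0.28, and Ezr, the apical membrane linker ezrin, by -1.14 ± 0.21 (adjusted p = 0.0136, 0.00841 and 0.0131). Leaving out Bec_LPCs replicate 1 or 2 keeps 1 library in that group, and calls then fell over all genes as well as in this list. In Hep_LPCs over NPC_LPCs none of 31 tested was called by edgeR or limma-voom in the fit of 4 libraries. Over all genes, edgeR called 0.795% there and limma-voom 5 genes, so few calls could fall in a list of this size. Of the 31, 8 had an edgeR p under 0.05 before adjustment. Such a p was reached by 2733 of all 12331 genes with edgeR. DESeq2 made 3 higher and 2 lower calls, and edgeR with all 6 libraries 2 higher and 2 lower, beside 1517 and 1274 calls over all genes. The list had a median log2 fold change of 0.46 against -0.003 over all genes.

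By class, the receptors and signalling genes had 7 of 11 members tested, ion transport 12 of 15, water channels 2 of 6, the bile acid shunt 2 of 4, and scaffolds and apical membrane genes 9 of 12. The water channel Aqp4 and the bile acid transporter subunit Slc51b were at 0 reads in all 6 libraries. Vipr1, the receptor for vasoactive intestinal peptide, which like Sctr raises cAMP, had 4 and 0 reads in Bec_LPCs, 0 and 0 in Hep_LPCs, and 10 and 2 in NPC_LPCs. P2ry2, a purinergic receptor on the calcium route, was at 20.6 and 17.7 CPM in Bec_LPCs, 41.4 and 37.9 CPM in Hep_LPCs, and 39.0 and 28.9 CPM in NPC_LPCs, and was called lower in Bec_LPCs than in Hep_LPCs (-1.05 ± 0.22, adjusted p = 0.0195). Vipr1 and P2ry2 were named after their values were seen.

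**Figure D5:**
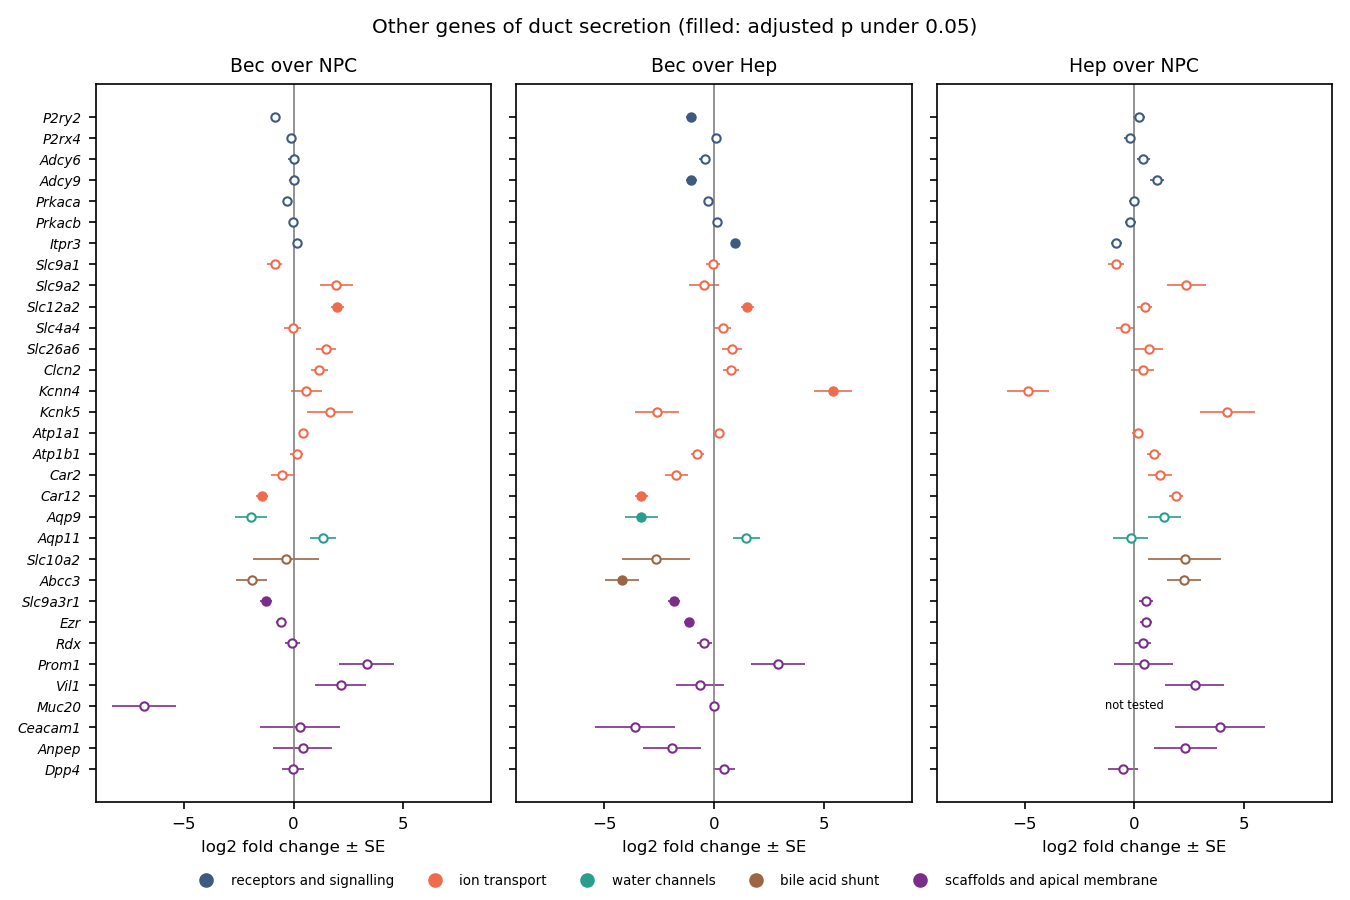
Log2 fold changes ± SE of the 32 tested genes of the duct secretion list, coloured by class, with filled symbols for an adjusted p under 0.05. Filled symbols number 3 in Bec_LPCs over NPC_LPCs, 10 in Bec_LPCs over Hep_LPCs and 0 in Hep_LPCs over NPC_LPCs.

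Of 27 paralogs 19 were tested, and in Bec_LPCs over NPC_LPCs 1 was called higher, Anxa3 (1.55 ± 0.27, adjusted p = 0.0267), and none lower, beside 4.88% and 6.44% of all genes. An unadjusted p under 0.05 in either direction was found for 8 of the 19, beside 4051 of all 12868 genes. Against Hep_LPCs 5 were called higher and 3 lower in Bec_LPCs, beside 16.1% and 17.2% of all genes, with a median of 0.21 against 0.03 over all genes. Ano6, a calcium-activated phospholipid scramblase, was at 216 and 203 CPM in Bec_LPCs, 554 and 677 CPM in Hep_LPCs, and 344 and 285 CPM in NPC_LPCs, and was called lower over Hep_LPCs (-1.56 ± 0.19, adjusted p = 0.00485). Ano8 rose by 1.18 ± 0.18 and Anxa6 by 1.18 ± 0.18 (adjusted p = 0.00808 and 0.00804), while Anxa8 changed by -1.04 ± 0.22 and Anxa2 by -0.80 ± 0.19 (adjusted p = 0.0184 and 0.0254). Slc4a3, an anion exchanger related to Slc4a2, rose by 1.85 ± 0.42 (adjusted p = 0.0228). No paralog was called in Hep_LPCs over NPC_LPCs by edgeR, beside 0.795% of all genes. Before adjustment, 6 had a p under 0.05, beside 2733 of all 12331 genes.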

How the data were processed

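Poly(A) RNA of 6 libraries was prepared with a stranded kit and read from both ends, as the labels' protocols state. The submitters' processing notes name Trimmomatic, HISAT2, Cufflinks, HTSeq and DESeq, without roles or versions, and the build mm10; the annotation and the strand setting are not stated. The authors deposited 1 table per library of whole-number counts per gene symbol, with FPKM beside the counts in the Hep_LPCs and NPC_LPCs tables, per the file headers. Rows without a name (14 in each Bec_LPCs table, at most 0.000191% of the reads) were left out. Older symbols were updated with RefSeq synonyms (16 in the Bec_LPCs tables and 843 in the others), and the 20573 shared symbols held 95.3% to 99.4% of the counts.

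Low genes were removed with filterByExpr, TMM scaling was applied, and edgeR's glmQLFit (robust) and glmQLFTest gave two-sided tests (edgeR 4.0.16, limma 3.58.1, DESeq2 1.42.0, R 4.3.3). Bec_LPCs was compared with each other group in a fit of 6 libraries, and Hep_LPCs with NPC_LPCs in a fit of 4. Each SE was obtained from the log2 fold change and the F statistic. The fits were tested on simulated data. Levels in every group use the scaling of the fit of 6. Gene positions and exon lengths are from GENCODE M21 (mm10), copies were searched with minimap2 2.31-r1302, and none of at least 95% identity over 200 bases was found for the 8 genes. FPKM, as deposited by the authors, was used for levels and for an alternative on log2(FPKM + 1) and log2(FPKM + 0.1). Named genes were the 8, called genes of the other lists with non-overlapping libraries (up to 6 by adjusted p), and the 2 nearest profiles. GC and TATA boxes were added after the windows were seen. The 8 genes and the lists were chosen with earlier results of these data known. The replicate number was not used as a block, since the groups come from different mouse lines and the labels tie no number to a shared day. A bile duct marker and the sum that holds it are not reported here.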

Additional observations from a re-analysis of the deposited data

How the results depend on the processing

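Of 264 recomputed fold changes of the 6 genes that were tested (not Sctr or Aqp1), 240 kept their direction and their side of the threshold. Counts of the 8 genes called higher in Bec_LPCs over NPC_LPCs (1) were 2 with the 4 libraries of these groups and 0 to 2 with a library left out. In Bec_LPCs over Hep_LPCs (2) the count was 1 with at least 10 CPM in 2 libraries, which drops Muc1, and 1 to 2 with a library left out. In Hep_LPCs over NPC_LPCs 1 was lower by DESeq2 and 1 with all 6 libraries, both Slc4a2. The gene added in Bec_LPCs over NPC_LPCs with the 4 libraries was Cftr, which entered that fit through Bec_LPCs, where it was high. For the 48 duct secretion genes in Bec_LPCs over NPC_LPCs, 2 were higher by DESeq2, limma-voom and the 4-library fit, 0 to 2 with a library left out; 1 was lower with library size alone, 5 by DESeq2, 0 to 4 with a library left out. In Bec_LPCs over Hep_LPCs 0 to 5 were higher and 1 to 9 lower with a library left out. In Hep_LPCs over NPC_LPCs 1 was higher without the low-count filter, 3 by DESeq2, 2 with all 6 libraries and 0 to 3 with a library left out; 2 were lower by DESeq2, 2 with all 6 libraries, 1 with the replicate block and 0 to 1 with a library left out. The replicate block changed no call of the 6 tested genes among the 8. Same-numbered libraries correlated at -0.04 to 0.09 in their deviations over all genes. These correlations cannot show whether same-numbered libraries share a day or batch, which the labels do not state.

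Calls over all genes in Bec_LPCs over NPC_LPCs (1457) were 2898 by DESeq2, 770 with the replicate block, 2492 with the 4 libraries, 547 among protein-coding genes without exon overlap (added after the data were seen) and 115 to 2363 with a library left out, lowest without Bec_LPCs replicate 1; 43.1% were higher, against 61.3% with library size alone, which moves the median of all genes from 0.01 to 0.17. In Bec_LPCs over Hep_LPCs (4293) they were 2457 without exon overlap and 491 to 4908 with a library left out, lowest without Bec_LPCs replicate 2; 48.3% were higher, against 60.9% with library size alone (median 0.21). In Hep_LPCs over NPC_LPCs (98) they were 515 without the filter, 172 with at least 10 CPM, 1517 by DESeq2, 5 by limma-voom, 1274 with all 6 libraries, 8 on log2(FPKM + 1) and 0 to 361 with a library left out.

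Signs turned for uncalled values only. Anxa13 in Hep_LPCs over NPC_LPCs, at -0.0074, was 0.0020 with DESeq2 size factors, 0.0078 with library size alone, 0.0020 by DESeq2, 0.050 by limma-voom, 0.055 with the replicate block, 0.017 with all 6 libraries, 0.023 and 0.026 on FPKM with the larger and smaller pseudocount, and -0.39 to 0.55 with a library left out. With a library left out, Anxa13 was -0.18 to 0.79 and Ggt1 -2.05 to 0.86 in Bec_LPCs over NPC_LPCs, Cftr -0.35 to 3.21 and Ggt1 -3.48 to 1.25 in Bec_LPCs over Hep_LPCs, and Ggt1 -2.47 to 3.39 in Hep_LPCs over NPC_LPCs. Apart from the leave-outs, the causes were not tested. Counts of 0 to 81 reads limit what Sctr, Aqp1, Cftr, Ggt1 and Muc1 can show.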
